A study of Mus musculus with 45 samples.

Results

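The genes described here are the chemokines and chemokine receptors of the mouse uterus, taken as every row of the count table whose symbol begins with Ccl, Cxcl, Ccr or Cxcr followed by a digit. There were 54 such rows among 24422 gene rows: 24 CC ligands, 13 CXC ligands, 11 CC receptors and 6 CXC receptors. They were followed over 6 groups, which were the whole uterine horn (uterus), the scraped mucosa (endometrium) and the wall left after scraping (myometrium) of wildtype (WT) and Plag1 knockout (KO) females. Each group held 7 mice, and each of the 14 mice gave all 3 tissues. The females were of the CD-1 stock, an outbred laboratory strain, sexually mature and 1 to 3 months old per the methods. All of them, WT as well as KO, had received 5 IU of pregnant mare serum, then 5 IU of hCG, and were killed on the day after the second injection. The KO allele carries lacZ in place of the Plag1 open reading frame in every cell of the animal. Whether the females used for uterus RNA had been mated is not given in the sources used here. The layers were separated by scraping, so each is an enriched fraction and not a sorted cell type.

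Chemokines are small secreted proteins that bind G protein-coupled receptors on leukocytes and other cells and direct their migration. They are grouped as CC or CXC by the spacing of their first conserved cysteines, and one receptor commonly binds several ligands. In the uterus they are known to guide macrophages, granulocytes and lymphocytes into the wall over the ovulatory cycle, and some, such as Cxcl12 and Cxcl14, are made by stroma or epithelium under basal conditions.

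Levels are given as CPM, the counts of a gene per 1000000 gene counts in a mouse's sample. The STRT protocol tags the 5′ end of each molecule, and the values were not divided by transcript length, so levels are compared between groups for a gene and not between genes. Total counts ranged from 264095 to 1232992 per library over 45 libraries, and a floor of 3 counts corresponded to 1.23 to 11.7 CPM in a mouse. Plag1 itself had at most 1 count in any library, so it could not serve as a check of the genotype labels. The labelled layers carried their defining markers. All 7 epithelial marker genes were higher in endometrium than in myometrium in both genotypes, and all 5 smooth muscle genes were lower. Single samples stood apart. The WT mouse 5 myometrium had a summed epithelial marker level of 922 CPM, against 342 CPM or less in the other WT myometria, and the endometrium of KO mouse 13 had a summed smooth muscle level of 10332 CPM, against 917 CPM or less in the other KO endometria. The WT mouse 3 endometrium was similar, with 10029 CPM against 3601 CPM or less. The WT mouse 8 endometrium had 6120 CPM of the oviduct epithelium marker Ovgp1, against 133 CPM or less in the other WT endometria. In these bulk samples, fewer cells of a type and less RNA per cell cannot be told apart.

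The start regions of 4 members whose levels differed between tissues are shown first, since 5′ tags are counted next to them. They are Cxcl14 (highest median in endometrium), Cxcl12 (lowest median in endometrium), Ccl8 (highest median in the whole horn) and Ccl9, whose region holds a pair of the motifs searched. Each sequence is the 250 bases before the RefSeq start, from the GRCm38.p6 assembly, written 5′ to 3′ on the strand of the gene. Capitals mark a TATA box core (TATAAA, gene strand), a kappa-B-type site of NF-kappa-B factors (GGGNNTTTCC, both strands) or an interferon-type repeat (GAAANNGAAA, both strands). The windows lie at chr13:56296552-56296801 (minus strand), chr6:117168285-117168534 (plus), chr11:82114935-82115184 (plus) and chr11:83578637-83578886 (minus), in the order below.
Cxcl14: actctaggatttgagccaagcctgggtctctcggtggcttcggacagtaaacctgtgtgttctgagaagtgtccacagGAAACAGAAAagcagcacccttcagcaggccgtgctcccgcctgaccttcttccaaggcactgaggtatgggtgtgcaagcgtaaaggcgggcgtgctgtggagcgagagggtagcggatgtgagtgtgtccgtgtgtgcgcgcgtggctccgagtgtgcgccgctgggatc
Cxcl12: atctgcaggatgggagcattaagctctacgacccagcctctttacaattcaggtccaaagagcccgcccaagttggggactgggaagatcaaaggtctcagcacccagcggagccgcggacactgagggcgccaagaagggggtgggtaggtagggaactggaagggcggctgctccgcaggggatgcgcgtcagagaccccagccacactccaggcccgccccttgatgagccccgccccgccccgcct
Ccl8: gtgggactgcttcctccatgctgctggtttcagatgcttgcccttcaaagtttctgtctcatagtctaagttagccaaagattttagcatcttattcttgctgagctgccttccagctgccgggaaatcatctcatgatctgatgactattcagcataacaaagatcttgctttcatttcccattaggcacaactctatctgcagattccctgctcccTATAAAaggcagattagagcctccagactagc
Ccl9: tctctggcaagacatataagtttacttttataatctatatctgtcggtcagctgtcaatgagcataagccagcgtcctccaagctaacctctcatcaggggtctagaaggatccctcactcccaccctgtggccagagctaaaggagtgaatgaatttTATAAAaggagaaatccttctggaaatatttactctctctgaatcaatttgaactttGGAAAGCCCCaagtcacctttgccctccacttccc

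RefSeq windows were found for 38 of the 54 members, in 45 entries, and for 10 of the 16 members that passed a test below. Ccl2, Ccl4, Ccl5, Ccl24, Cxcl16 and Cxcl17 had no entry. The TATA box core was in 9 of the 45 windows (20.0%) and in 7.59% of all 32851 windows of the table. Among members that passed a test it was in those of Ccl8, Ccl9, Cxcl9 and Cxcl13. Its first base lay at -32, -92, -195 and -46 from the start, in that order, so the letters were not all equally near it. A kappa-B-type site was in 6 windows (13.3%, against 1.41% of all), of which Cxcl1, Cxcl2, Cxcl3 and Ccl20 belonged to ligands with 0 to 40 counts over all libraries, and Ccl9 and Ccr3 to members that passed a test. The interferon-type repeat was in 3 windows (6.67%, against 2.98%): Ccl19, Cxcl10 and Cxcl14. The window of Cxcl12 held none of the 3 motifs and was 64.4% G and C with 14 CG dinucleotides, and that of Cxcl14 was 59.6% with 16. By contrast, those of Ccl8 and Ccl9 were 44.8% and 43.6% with 1 and 2, where the medians over all windows were 52.4% and 6. These are descriptions of the letters and not evidence of binding.

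Ccl8 (7253 counts over all libraries), Cxcl12 (6854), Cxcl17 (5676), Cxcl16 (2018), Cxcl14 (1823), Ccl6 (1373) and Ccl27a (1019) were the 7 members with the most counts, and all are ligands. Another 10 members were at 0 counts in every library: Ccl21a, Ccl21b, Ccl21c, Ccl27b, Ccl28, Cxcl3, Ccr1l1, Ccr4, Ccr8 and Cxcr1. A count of 0 allows a level of up to 1.23 to 11.7 CPM in a single mouse, and this covers counting error only. For Ccl21a, Ccl21b, Ccl21c, Ccl27a, Ccl27b and Ccl19, the first 100 bases of an annotated transcript matched further places in the NCBIM37 (mm9) genome at 95% identity or more. There were 7 such places for each Ccl21 gene and up to 11 for the others, so their counts are uncertain. The summed level of the 17 receptors had medians of 14.6 to 23.7 CPM over the 6 groups and that of the 37 ligands had medians of 669 to 1280 CPM, sums that are not scaled by length and so are not ranked against each other.

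**Figure D1:**
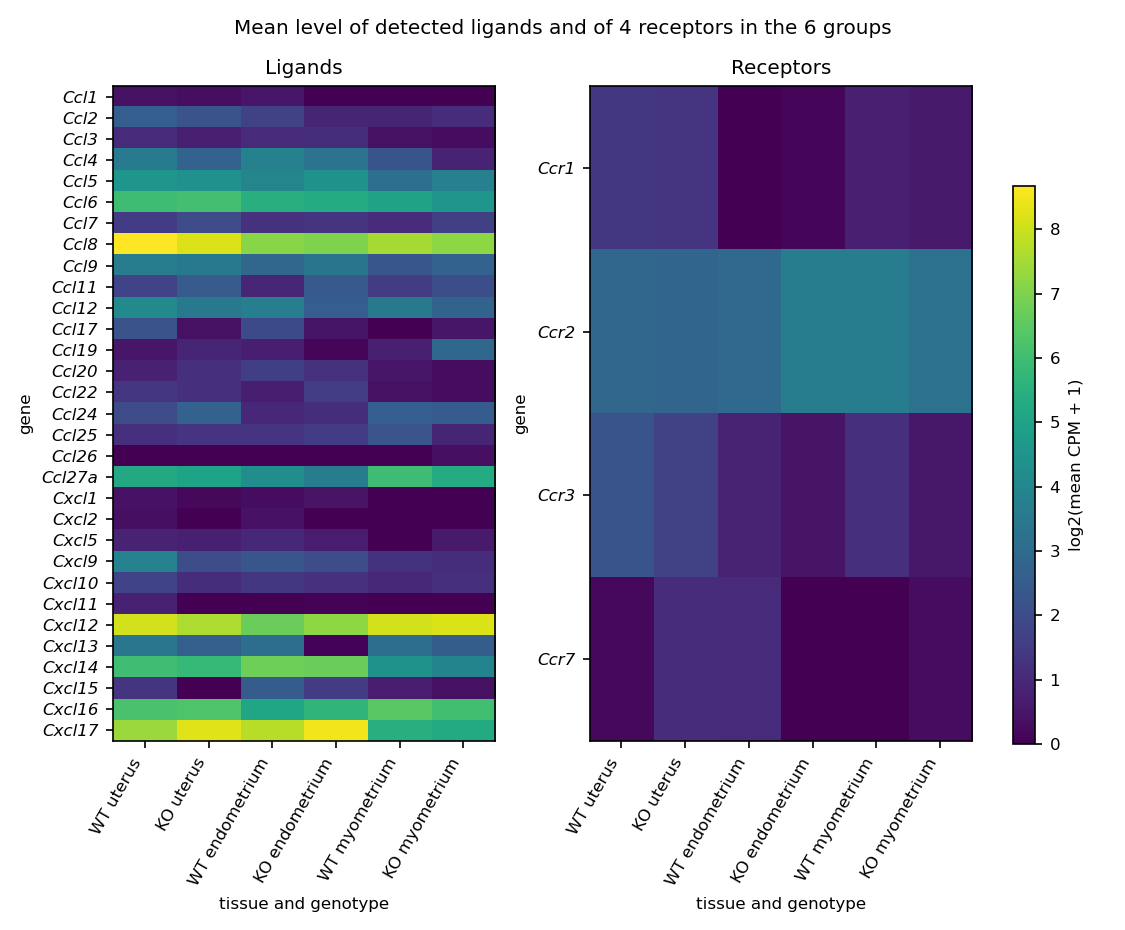
Mean level of each chemokine ligand with at least 1 count and of the receptors Ccr1, Ccr2, Ccr3 and Ccr7, as log2(mean CPM + 1) over the 7 mice of a group, with ligands on the left, receptors on the right and 1 column per tissue and genotype. Along a line of the map Cxcl14 is darkest in myometrium and Cxcl12 in endometrium; colours are to be compared between groups for a gene and not between genes, since values are not scaled by transcript length.

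By role, the 4 ligands that act mainly on neutrophils (Cxcl1, Cxcl2, Cxcl3 and Cxcl5) were close to absent. Their summed level was 0 CPM in all 7 WT myometria and at most 5.29 CPM in any mouse. The interferon-inducible ligands Cxcl9, Cxcl10 and Cxcl11, which draw activated T cells, had group medians of 1.29 to 3.27 CPM with single high mice, up to 96.3 CPM in WT uterus. The 6 ligands of lymphoid and homeostatic type, almost all Cxcl12, had medians of 104 to 311 CPM. For the 8 epithelial and mucosal ligands the medians were 148 to 410 CPM. The 54 members summed had medians of 1198 CPM in WT uterus and 1306 CPM in KO uterus, against 692 to 769 CPM in the 4 groups of separated layers, and the ranges of all 6 groups overlapped.

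Endometrium and myometrium were compared first, to ask which chemokines mark the scraped mucosa and which the remaining wall. Cxcl14 and Cxcl17, ligands made by epithelia, were higher in endometrium in both genotypes. Ccl27a and Cxcl12 were lower in both genotypes, and Cxcl16 was lower in WT mice. In WT mice 26 members were tested and 5 passed (adjusted p under 0.05), 2 higher and 3 lower in endometrium. That is 19.2% of the members tested, beside 13.2% of all genes tested (6.81% higher and 6.39% lower). In KO mice 24 were tested and 4 passed, 2 in each direction. This was 16.7%, beside 19.3% of all genes (10.6% higher and 8.71% lower). The median log2 fold change was 0.05 over the members and 0.01 over all genes in WT, and 0.35 and 0.08 in KO. Scaling to the spike-in RNAs instead gave 4 higher and 2 lower members in WT (23.1%, beside 10.7% of all genes) and 4 higher and 1 lower in KO (20.8%, beside 23.5%). Of all called genes, 51.6% were higher in WT endometrium by the first scaling and 67.3% by the spike-ins, and in KO endometrium 54.9% and 86.3%.

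Cxcl14, a ligand known from epithelia and from decidualising stroma, lies on chromosome 13 from 56390008 to 56397912 (minus strand, NCBIM37). Its level in WT endometrium ranged from 50.8 CPM through a median of 107 CPM to 164 CPM, and in WT myometrium from 6.47 through 20.6 to 36.0 CPM. Every WT endometrium thus lay above every WT myometrium. In KO endometrium the level ranged from 42.4 through 69.9 to 230 CPM and in KO myometrium from 6.58 through 11.5 to 25.8 CPM, again without overlap. The log2 fold change was 2.28 ± 0.33 (SE; adjusted p = 3.91e-05, edgeR) in WT and 2.83 ± 0.36 (adjusted p = 6.98e-06) in KO. It was higher in endometrium in 7 of 7 mice of each genotype.

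Cxcl17, a mucosal ligand that attracts monocytes and dendritic cells, lies on chromosome 7 from 26185072 to 26197905 (minus strand). In WT endometrium its level ranged from 53.6 through 218 to 437 CPM. In WT myometrium 6 mice lay between 3.45 and 21.0 CPM, while mouse 5 stood at 229 CPM, among the endometrium values. That is the WT myometrium with the high epithelial marker sum. The fold change on the log2 scale was 2.13 ± 0.63 (adjusted p = 0.0229, edgeR) with all samples, 4.07 without that myometrium, and 3.27 ± 0.33 when mouse entered as a replicate block. In KO mice endometrium ranged from 39.5 through 278 to 937 CPM and myometrium from 6.41 through 28.0 to 136 CPM, so the groups overlapped. The KO difference was 3.10 ± 0.58 on the log2 scale (adjusted p = 0.000456), and endometrium was the higher of the pair in 7 of 7 mice of each genotype. The WT call was lost when mouse 7, 8, 10 or 12 was left out (adjusted p = 0.0549 to 0.0968) and with DESeq2 (adjusted p = 0.079).

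**Figure D2:**
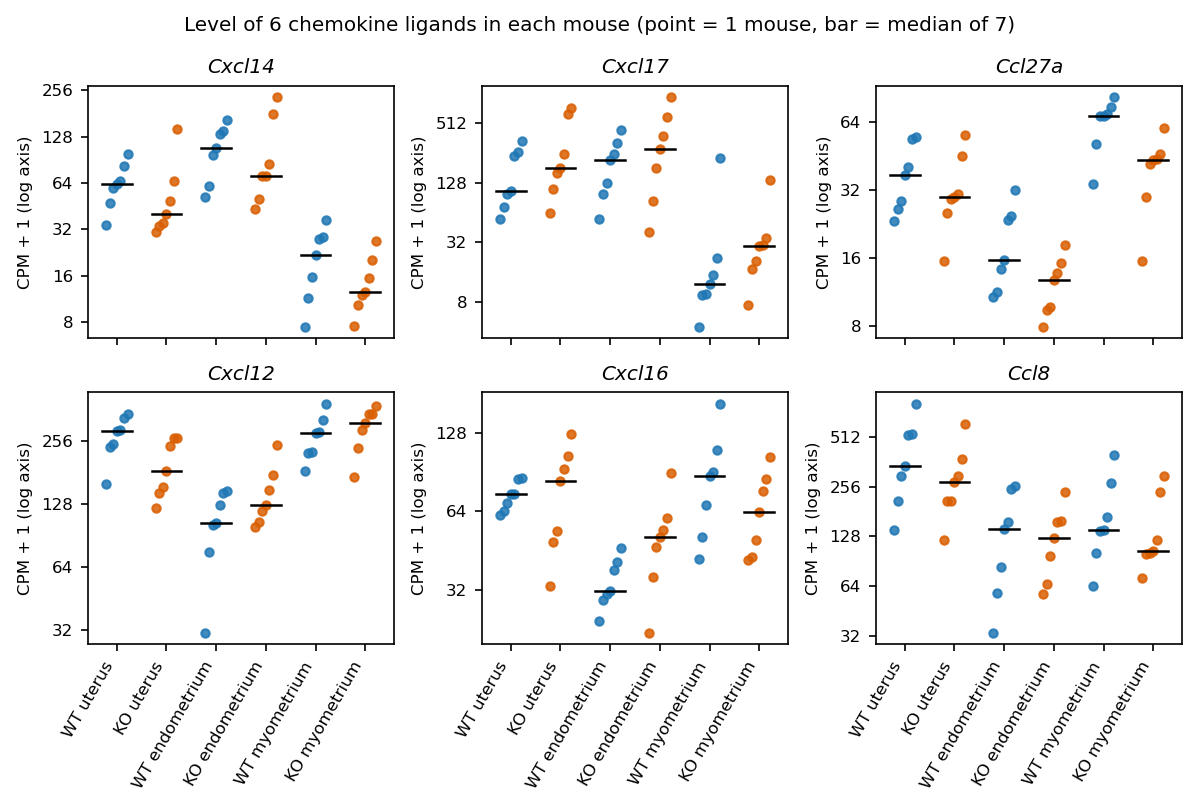
Level of 6 chemokine ligands in each mouse, as CPM + 1 on a log axis, with 1 point per mouse (blue WT, orange KO) and a bar at the median of 7. The medians of Cxcl14 and Cxcl17 are lowest in myometrium, where a WT point at 229 CPM of Cxcl17 lies among the endometrium values. Those of Ccl27a and Cxcl12 are lowest in endometrium, and those of Ccl8 highest in the whole horn.

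Ccl27a, a ligand best known from skin that binds Ccr10, was lower in endometrium. It lies on chromosome 4 from 41716340 to 41721120 (minus strand). The WT endometrium levels ran from 9.75 through 14.7 to 30.9 CPM and the WT myometrium levels from 32.8 through 66.8 to 80.7 CPM, without overlap. The KO levels were 6.97, 11.8 and 17.3 CPM in endometrium and 14.5, 42.3 and 59.2 CPM in myometrium, with a small overlap. Endometrium fell below myometrium in 7 of 7 mice of each genotype, by 1.92 ± 0.30 on the log2 scale in WT (adjusted p = 8.61e-05, edgeR) and by 1.70 ± 0.33 in KO (adjusted p = 0.000613). Il11ra1, the receptor gene for interleukin 11, overlaps Ccl27a on the opposite strand, and the use of strand in counting is not given. It moved the same way, with log2 fold changes of -0.98 ± 0.32 in WT (adjusted p = 0.04) and -0.88 ± 0.27 in KO (adjusted p = 0.0224). Reads of the pair cannot be told apart here.

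Cxcl12, the ligand of Cxcr4 that retains and recruits leukocytes and is made by stromal and vascular cells, lies on chromosome 6 from 117118553 to 117131385 (plus strand). WT endometrium ranged from 30.0 through 103 to 146 CPM and WT myometrium from 183 through 280 to 384 CPM, and the groups did not overlap. The lowest endometrium value, of mouse 5, rested on 9 counts. KO endometrium ranged from 97.9 through 126 to 243 CPM and KO myometrium from 172 through 311 to 375 CPM, and these overlapped. Endometrium was the lower layer in 7 of 7 mice of each genotype, and the difference was -1.45 ± 0.28 on the log2 scale in WT (adjusted p = 0.000816, edgeR) and -1.03 ± 0.24 in KO (adjusted p = 0.00367). Both calls were lost with spike-in scaling, at -1.13 (adjusted p = 0.0563) and -0.48 (adjusted p = 0.266). By that scaling the median over all genes was 0.21 in WT and 0.58 in KO. Reading Cxcl12 against that median would largely undo the scaling, so it gives no separate evidence.

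Cxcl16, a transmembrane ligand and scavenger receptor that binds Cxcr6, lies on chromosome 11 from 70267485 to 70273486 (minus strand). In WT mice its level was 23.4 to 45.5 CPM in endometrium (median 30.8) and 40.9 to 164 CPM in myometrium (median 86.3), lower in endometrium in 7 of 7 mice. The log2 fold change was -1.44 ± 0.30 (adjusted p = 0.0015, edgeR). In KO mice the levels were 20.9 to 88.4 CPM (median 50.1) and 40.6 to 103 CPM (median 62.5). The difference of -0.39 ± 0.30 (adjusted p = 0.404; 95% interval -0.97 to 0.19) did not pass, and endometrium was the lower layer in 5 of 7 mice. The layer difference was not shown to depend on genotype: the interaction was 1.06 ± 0.44 on the log2 scale with an adjusted p of 0.993. Zmynd15 overlaps Cxcl16 on the opposite strand, with log2 fold changes of -1.64 ± 0.64 in WT and -0.56 ± 0.74 in KO.

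**Figure D3:**
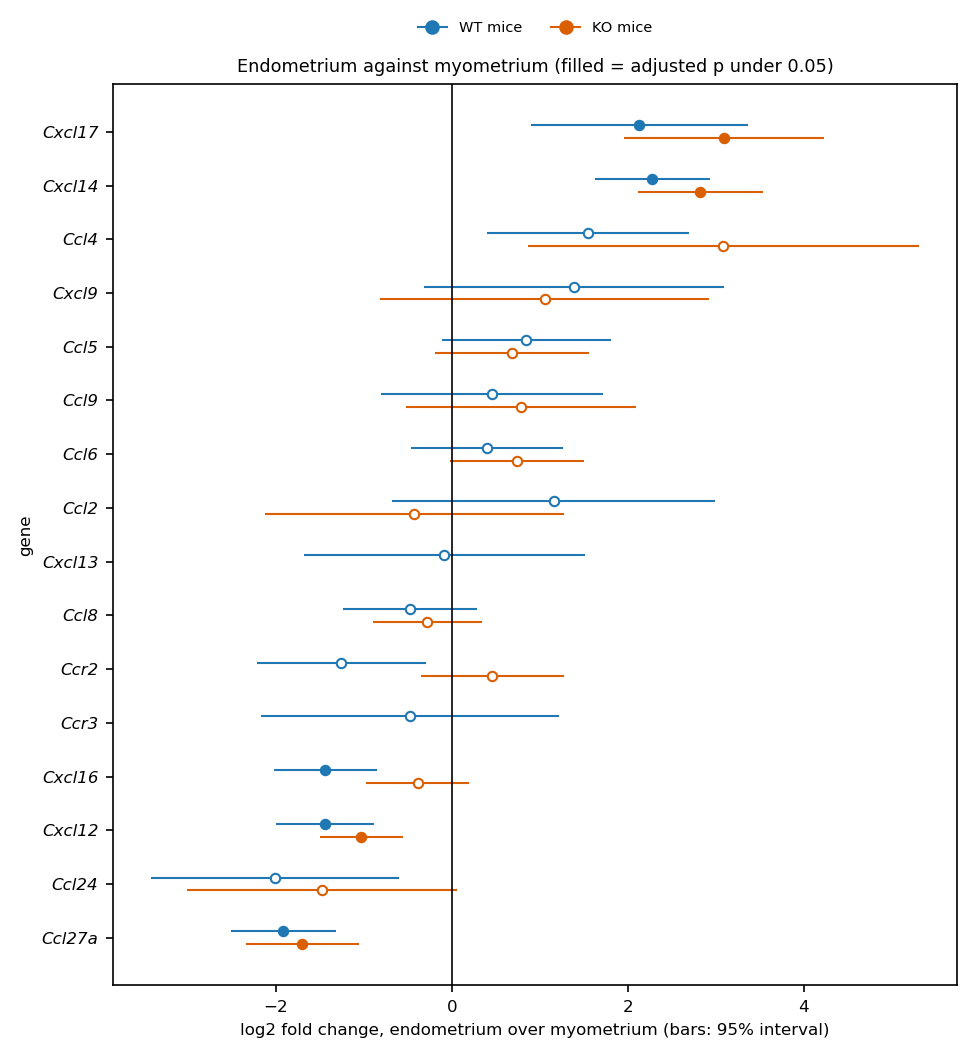
Log2 fold change of endometrium over myometrium for the members described in full that were tested, in WT (blue) and KO (orange) mice, with bars at the 95% interval and filled points where the adjusted p was under 0.05. Cxcl17 and Cxcl14 stand to the right and Ccl27a and Cxcl12 to the left in both genotypes, whereas most members with wide intervals, such as Ccl2 and Cxcl9, span 0.

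Among the members that did not pass, Ccl4, a macrophage and T cell attractant, had an adjusted p under 0.1 in both genotypes (edgeR). Ccl24, Ccr2 and Cxcl15 were under 0.1 in WT mice only. Cxcl15 passed in WT mice with DESeq2 and with spike-in scaling. The WT levels of Ccl4 were 2.36 to 43.3 CPM in endometrium (median 7.80) and 0 to 8.33 CPM in myometrium (median 4.31). The difference was 1.55 ± 0.58 on the log2 scale (adjusted p = 0.0827), higher in 7 of 7 mice. In KO mice the 7 endometria held 40 counts of Ccl4 and the 7 myometria 3 counts, all of them in mouse 6. That mouse also held 25 of the 40 endometrium counts, at 35.7 CPM, and the endometria of mice 13 and 14 were at 0. The ratio of pooled rates was 7.69, with an exact counting interval of 2.45 to 38.9, and the fit gave 3.09 ± 1.13 (adjusted p = 0.0573). This interval and the later counting intervals cover counting error only and not the spread between mice. The KO value was 3.20 ± 0.89 and passed when mouse entered as a replicate block (adjusted p = 0.00468). Ccl8, the monocyte attractant with the most counts of any member, did not differ detectably between the layers, with -0.48 ± 0.39 in WT (95% interval -1.23 to 0.28) and -0.28 ± 0.31 in KO (-0.89 to 0.34).

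The whole horn was then set against each layer over both genotypes, since it holds everything the scraping divided or lost. Of 36 members tested against endometrium 8 passed, all higher in the whole horn. This is 22.2% of the members, beside 8.41% of all genes (5.11% higher and 3.30% lower). Of 35 tested against myometrium 10 passed, again all higher in the whole horn, which is 28.6% beside 27.8% of all genes (15.6% higher and 12.1% lower). The median log2 fold change of the members was 0.49 against endometrium and 0.90 against myometrium, where all genes had -0.05 and 0.03. Both sets of values share the uterus samples. A replicate block for mouse gave 12 members against endometrium (10 higher and 2 lower), or 33.3% beside 11.5% of all genes, and 10 against myometrium, or 28.6% beside 26.5%. Scaling to the spike-ins gave 9 members, or 25.0% beside 6.76%, and 15 members, or 42.9% beside 39.0%. All of these were higher, with 91.0% and 92.6% of all called genes higher, against 60.8% and 56.3% by the first scaling.

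Ccl8 was higher in the whole horn than in either layer. It lies on chromosome 11 from 81928687 to 81930301 (plus strand), within a cluster with Ccl2, Ccl7, Ccl11 and Ccl12. Its level ranged from 138 through 339 to 811 CPM in WT uterus and from 120 through 273 to 611 CPM in KO uterus. In endometrium it ranged from 32.2 through 140 to 258 CPM (WT) and from 55.9 through 123 to 237 CPM (KO), and in myometrium from 62.5 through 139 to 398 CPM (WT) and from 70.5 through 103 to 296 CPM (KO). The ranges overlapped, but mouse by mouse the whole horn exceeded the endometrium in 14 of 14 and the myometrium in 13 of 14. The log2 differences were 1.63 ± 0.27 (adjusted p = 0.000174, edgeR) and 1.28 ± 0.25 (adjusted p = 0.000195). Both calls held in each alternative run.

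Other ligands of myeloid cells were higher in the whole horn than in myometrium. Ccl6 and Ccl9, monocyte and macrophage attractants encoded side by side on chromosome 11 (83401384 to 83406589 and 83386421 to 83392138), differed by 1.47 ± 0.30 (adjusted p = 0.000228, edgeR) and 1.41 ± 0.35 (adjusted p = 0.00199) on the log2 scale. The Ccl6 levels were 19.2 to 131 CPM in WT uterus (median 46.3) and 16.6 to 153 CPM in KO uterus (51.4), against 9.32 to 84.1 CPM in WT myometrium (22.4) and 16.4 to 29.0 CPM in KO myometrium (21.9). For Ccl9 the medians were 7.72 and 10.3 CPM in WT and KO uterus, against 3.75 and 5.60 CPM in myometrium. The groups overlapped for both genes, and the whole horn was the higher sample in 12 and 13 of 14 mice. Against endometrium their differences of 0.89 ± 0.34 and 0.77 ± 0.44 did not pass (adjusted p = 0.101 and 0.298), but did with a block for mouse, at 0.94 ± 0.21 (adjusted p = 0.00101) and 1.07 ± 0.35 (adjusted p = 0.0311). Ccl4 exceeded myometrium by 2.15 ± 0.57 (adjusted p = 0.00432), in 12 of 14 mice. The uterus of WT mouse 8 stood at 36.0 CPM of Ccl4, against 3.30 to 14.2 CPM in the other WT uteri. The Ccl4 call held with each mouse left out, at 1.71 to 3.00. E230016K23Rik overlaps Ccl6 on the opposite strand, and its difference of 0.81 ± 0.74 did not pass.

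Ccl2, Ccl5 and Cxcl9, which attract monocytes and T cells, also passed against myometrium, but their calls rested on WT mouse 8. Ccl5 was 96.3 CPM in the uterus of that mouse and 7.20 to 18.0 CPM in the other WT uteri. Its level of Cxcl9 was 77.2 CPM there and 0 to 7.20 CPM in the others, and its level of Ccl2, which Gm17268 overlaps on the opposite strand, was 24.3 CPM against 0 to 2.82 CPM. The log2 differences were 1.29 ± 0.38 for Ccl5 (adjusted p = 0.01, edgeR), 2.43 ± 0.78 for Cxcl9 (adjusted p = 0.0178) and 1.96 ± 0.68 for Ccl2 (adjusted p = 0.0283). Without mouse 8 they were 0.81 (adjusted p = 0.0519), 1.43 (0.11) and 1.32 (0.14). Then 6 of 34 members passed in place of 10 of 35, beside 3477 of 14106 genes in place of 3957 of 14243. The Ccl2 call was also lost without mouse 6, at 1.73 (0.0811). The endometrium of mouse 8, the sample with the high Ovgp1 level, did not enter this comparison of whole horn and myometrium. Ovgp1 was at most 82.6 CPM in the WT uteri and 32.0 CPM in the WT myometria. The part of oviduct tissue in these values was not tested.

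Cxcl14 and Cxcl17 passed against myometrium as well, with 2.02 ± 0.25 (adjusted p = 1.17e-07, edgeR) and 2.57 ± 0.46 (adjusted p = 5.5e-05), higher in the whole horn in 14 of 14 mice each. The Cxcl17 value was 3.55 without the WT mouse 5 myometrium, the sample with the high epithelial marker sum. Against endometrium they were -0.56 ± 0.24 (adjusted p = 0.147) and -0.06 ± 0.37 (adjusted p = 0.955). With the replicate block Cxcl14 was lower in the whole horn than in endometrium by -0.54 ± 0.17 (adjusted p = 0.0281), and so was Cxcl15, an epithelial ligand with 43 counts in all, by -2.37 ± 0.81 (adjusted p = 0.0462). Ccl12, a monocyte attractant, passed with the block against both layers, at 1.25 ± 0.33 (adjusted p = 0.00577) and 0.91 ± 0.33 (adjusted p = 0.0278), and not without it (adjusted p = 0.214 and 0.0984).

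The members that were lower in endometrium than in myometrium were also lower in it than in the whole horn. The differences of whole horn over endometrium were 1.46 ± 0.23 for Ccl27a (adjusted p = 7.68e-05, edgeR), 1.12 ± 0.20 for Cxcl12 (adjusted p = 0.000357) and 1.04 ± 0.19 for Cxcl16 (adjusted p = 0.000428). Il11ra1, opposite Ccl27a, had 0.94 ± 0.22 (adjusted p = 0.00462), the same direction. Over myometrium the same genes had -0.33 ± 0.20, -0.10 ± 0.15 and 0.14 ± 0.19, and none of these passed. With spike-in scaling Cxcl12 and Cxcl16 were higher than in myometrium too, by 0.48 ± 0.16 (adjusted p = 0.016) and 0.75 ± 0.21 (adjusted p = 0.00324), where the median over all genes was 0.57. Ccl24, an eosinophil attractant, was 0 to 2.68 CPM in WT endometrium (5 counts) and 0 to 4.11 CPM in KO endometrium (13 counts). In uterus it was 0 to 5.73 CPM (median 3.30) and 2.08 to 11.2 CPM (median 5.80). The difference was 1.72 ± 0.50 (adjusted p = 0.0253), in 11 of 14 mice, and it was lost without mouse 5, 7, 10 or 14 (adjusted p = 0.0501 to 0.0666).

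Cxcl13, which attracts B cells through Cxcr5, was higher in the whole horn than in endometrium by 2.38 ± 0.74 (adjusted p = 0.039, edgeR), in 11 of 14 mice. The levels were uneven between mice, from 1.29 through 4.57 to 27.3 CPM in WT uterus and from 0 through 2.57 to 14.4 CPM in KO uterus. In WT endometrium 6 mice were at 0 to 3.90 CPM and mouse 8 at 48.0 CPM, while the KO endometria held 1 count in all. Without mouse 8 the difference was 3.72 (adjusted p = 0.000471). This call was lost without mouse 1, 2, 6, 9, 11, 13 or 14 or without the KO mouse 13 endometrium (adjusted p = 0.0545 to 0.0991), and held with the replicate block, at 2.78 ± 0.57 (adjusted p = 0.000389).

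**Figure D4:**
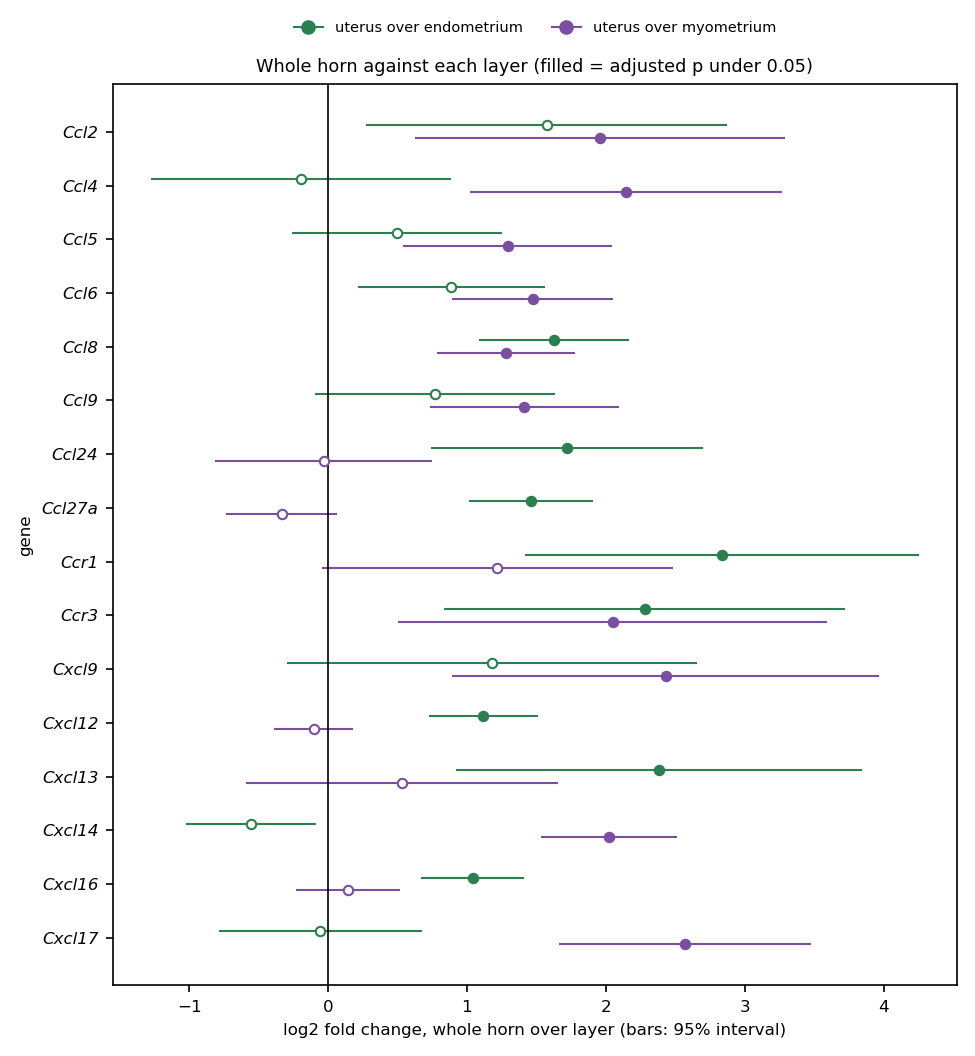
Log2 fold change of the whole horn over endometrium (green) and over myometrium (purple) for the 16 members that passed at least 1 of these comparisons, with bars at the 95% interval and filled points where the adjusted p was under 0.05. Ccl8 and Ccr3 are filled in both comparisons, Ccl27a, Cxcl12 and Cxcl16 only against endometrium, and Cxcl14 and Cxcl17 only against myometrium.

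The receptors were sparse, so their tests rest on few counts. Ccr2, which binds Ccl2 and Ccl12 on monocytes, had 256 counts over all libraries, Cxcr6 had 79, Ccr3 had 53 and Ccr10 had 46. Ccr1, a receptor of monocytes and granulocytes, was at 0 counts in the 7 WT endometria and at 2 counts in the KO endometria, both from mouse 13. The uteri held 19 counts, in 10 of 14 mice. The ratio of pooled rates was 7.88, with an exact counting interval of 1.90 to 69.8, and the fit gave 2.84 ± 0.72 on the log2 scale (adjusted p = 0.0117, edgeR). The DESeq2 fit gave no adjusted p for it.

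Ccr3, the eosinophil receptor of Ccl11 and Ccl24, passed against both layers, at 2.28 ± 0.74 (adjusted p = 0.0464, edgeR) over endometrium and 2.05 ± 0.79 (adjusted p = 0.0473) over myometrium. Both calls were at the threshold. In WT uterus the level was 18.8 CPM in mouse 1 and 0 to 3.27 CPM in the others, and in KO uterus it was 10.3 CPM in mouse 9, 4.59 CPM in mouse 2 and 0 to 1.04 CPM in the others. The whole horn exceeded each layer in 7 of 14 mice. With the replicate block neither call held (adjusted p = 0.138 and 0.103), and without mouse 1 the values were 1.49 (adjusted p = 0.207) and 1.48 (adjusted p = 0.146). They were also lost when most other mice were left out singly, with adjusted p from 0.0508 and 0.0517 upward. The largest adjusted p values were those without mouse 1.

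Leukocyte and other markers moved along with some of these comparisons. Over myometrium, all 7 epithelial genes were higher in the whole horn, with sums of 708 to 2098 CPM in the uteri and 103 to 922 CPM in the myometria. All 5 smooth muscle genes and all 6 stromal fibroblast genes were lower in the whole horn than in myometrium, and the stromal sums were 2114 to 5597 CPM in the uteri, 851 to 2844 CPM in the endometria and 4709 to 13197 CPM in the myometria. Over endometrium, 5 of 5 smooth muscle genes were higher in the whole horn, 3 stromal fibroblast genes were higher and 1 was lower. Over myometrium, the whole horn was higher for 5 of 8 macrophage genes and lower for 1, and the summed macrophage level was 356 to 1110 CPM in the uteri against 347 to 619 CPM in the myometria. Over endometrium, none of the 8 passed, and the endometrium sums were 343 to 1208 CPM. All 3 mast cell genes were higher in the whole horn than in endometrium, with sums of 88.1 to 253 CPM against 0 to 140 CPM, as were 3 of 4 genes of lymphatic endothelium, with sums of 32.2 to 125 CPM against 2.85 to 65.0 CPM. A pair of 3 mesothelium genes was higher in the whole horn than in each layer, with sums of 32.7 to 249 CPM in the uteri, 3.33 to 88.2 CPM in the endometria and 10.5 to 84.1 CPM in the myometria. Between the layers, 5 of 6 stromal fibroblast genes and 2 of 4 lymphatic genes were lower in endometrium than in myometrium in each genotype. The mast cell genes were lower in endometrium too, 3 of 3 in WT and 2 of 3 in KO, as were 2 of 3 mesothelium genes in KO. For NK cells 2 of 3 genes in WT and 1 of 3 in KO were higher in endometrium, and for general leukocyte genes 1 of 3 and 2 of 3. Of the macrophage genes, 2 of 8 were lower in WT endometrium, and in KO 3 were higher and 1 was lower. Of the 5 neutrophil genes 4 were tested, and 2 of them were higher in the whole horn than in each layer, with sums of 0 to 132 CPM in the uteri. Over myometrium, 2 of 3 general leukocyte genes, 2 of 4 antigen-presenting cell genes and 1 of 3 genes each of T cells and NK cells were also higher in the whole horn, and none of these passed over endometrium. The general leukocyte sums were 65.6 to 228 CPM in the uteri, 96.3 to 315 CPM in the endometria and 59.8 to 113 CPM in the myometria. Of the 3 eosinophil genes, 1 to 2 were at 0 counts in each group and 1 was tested. It was higher in the whole horn than in myometrium and in KO endometrium than in KO myometrium. The eosinophil sums were at most 13.7 CPM in any mouse. Of 2 B cell genes tested, 1 was higher in KO endometrium than in KO myometrium. The 1 adipocyte gene tested was lower in endometrium than in myometrium in each genotype. It was also lower in endometrium than in the whole horn, and lower in the whole horn than in myometrium. The oviduct marker Ovgp1 was higher in endometrium than in myometrium, by 6.09 on the log2 scale in WT and 2.62 in KO. It was lower in the whole horn than in endometrium, by -3.95. Its level was 10.3 to 574 CPM in the KO endometria. None of the 4 blood endothelium genes passed in any comparison. None of the marker genes tested passed between KO and WT in any tissue. Their part in the chemokine differences was not tested.

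KO and WT mice were compared within each tissue, which asks whether loss of Plag1 changed chemokine expression in the uterus. No member passed. In uterus 30 members were tested and 0 passed, and 2 had an unadjusted p under 0.05 (6.67%, beside 0% of all genes adjusted and 5.64% unadjusted). For endometrium the numbers were 28 tested, 0 passed and 3 unadjusted (10.7%, beside 0% and 5.20%), and for myometrium 26, 0 and 4 (15.4%, beside 0% and 4.22%). DESeq2 also gave 0 in each tissue, as did both blocks of plate rows alone and the fits without WT mouse 8. Without that mouse the numbers with an unadjusted p under 0.05 were 3 of 26 in uterus, 0 of 25 in endometrium and 4 of 26 in myometrium, beside 5.74%, 5.43% and 4.10% of all genes. The genotype by layer interaction had 34 members tested, 0 passed by edgeR or DESeq2, and 4 unadjusted by edgeR (11.8%, beside 0% and 4.60%), which were Ccr2, Cxcl13, Cxcl16 and Ccl17. It was 2 of 34 without mouse 8, beside 4.84% of all genes.

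The intervals show what differences these samples leave possible. In uterus the log2 KO over WT difference was -0.42 for Ccl8 (95% interval -1.06 to 0.22) and -0.38 for Cxcl12 (-0.81 to 0.04). It was -0.16 for Cxcl14 (-0.78 to 0.45) and 0.10 for Cxcl16 (-0.34 to 0.55). Cxcl17 was 53.6 to 342 CPM in WT uterus (median 103) and 61.8 to 737 CPM in KO uterus (median 182). Its difference of 0.98 ± 0.46 had an unadjusted p under the threshold and did not pass (adjusted p = 0.849, edgeR), and in endometrium it was 0.87 ± 0.51 (adjusted p = 0.959). Within plate rows A to C the uterus difference was 1.35 ± 0.54, against 0.61 ± 0.69 in rows D to F. With spike-in scaling, where the median of all genes was -0.37, it was 0.59 ± 0.48. In myometrium, where WT mouse 5 stood apart, the Cxcl17 difference was -0.10 ± 0.64 by edgeR and 1.73 ± 0.52 by DESeq2, and it passed by neither (adjusted p = 1.0 each).

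The member with the smallest p in uterus was Ccr7, the receptor that guides dendritic cells to lymph nodes. It rested on 6 counts in 5 KO uteri and 1 count in the WT uteri. The ratio of pooled rates was 7.73 with an exact counting interval of 0.938 to 356, and the adjusted p was 0.805 (edgeR). In endometrium it was Ccr2. Its level ranged from 1.18 through 3.25 to 20.0 CPM in WT and from 6.36 through 8.87 to 24.2 CPM in KO, a log2 difference of 1.19 ± 0.51 (adjusted p = 0.908), and the groups overlapped. Cxcl16 (0.67 ± 0.30) and Ccl11 (2.28 ± 1.04), which draws eosinophils and had 86 counts in all, were the other members with an unadjusted p under the threshold there. In myometrium Ccr2 was 4.00 to 17.7 CPM in WT (median 12.9) and 4.93 to 21.0 CPM in KO (median 6.27), a difference of -0.52 ± 0.40. The interaction for this gene was 1.72 ± 0.63, with an adjusted p of 0.97. Ccl27a had the smallest p in myometrium, with -0.66 ± 0.27 (adjusted p = 1.0) and overlapping groups, while Il11ra1 on the other strand had -0.13 ± 0.24. Ccl4, Ccl25 and Ccl19 were the others with an unadjusted p under the threshold in myometrium, at -1.98 ± 0.86, -2.04 ± 0.88 and 2.60 ± 1.09. For Ccl19 the WT myometria held 3 counts and the KO myometria 16, of which 13 came from 1 mouse at 41.9 CPM, and the KO median was 0 CPM. Ccl4 had 3 counts in the KO and 18 in the WT myometria, a ratio of pooled rates of 0.192 with an exact counting interval of 0.0362 to 0.657. That interval covers counting error only and not the spread between mice. All 3 KO counts came from mouse 6, and 8 of the 18 WT counts came from mouse 12.

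**Figure D5:**
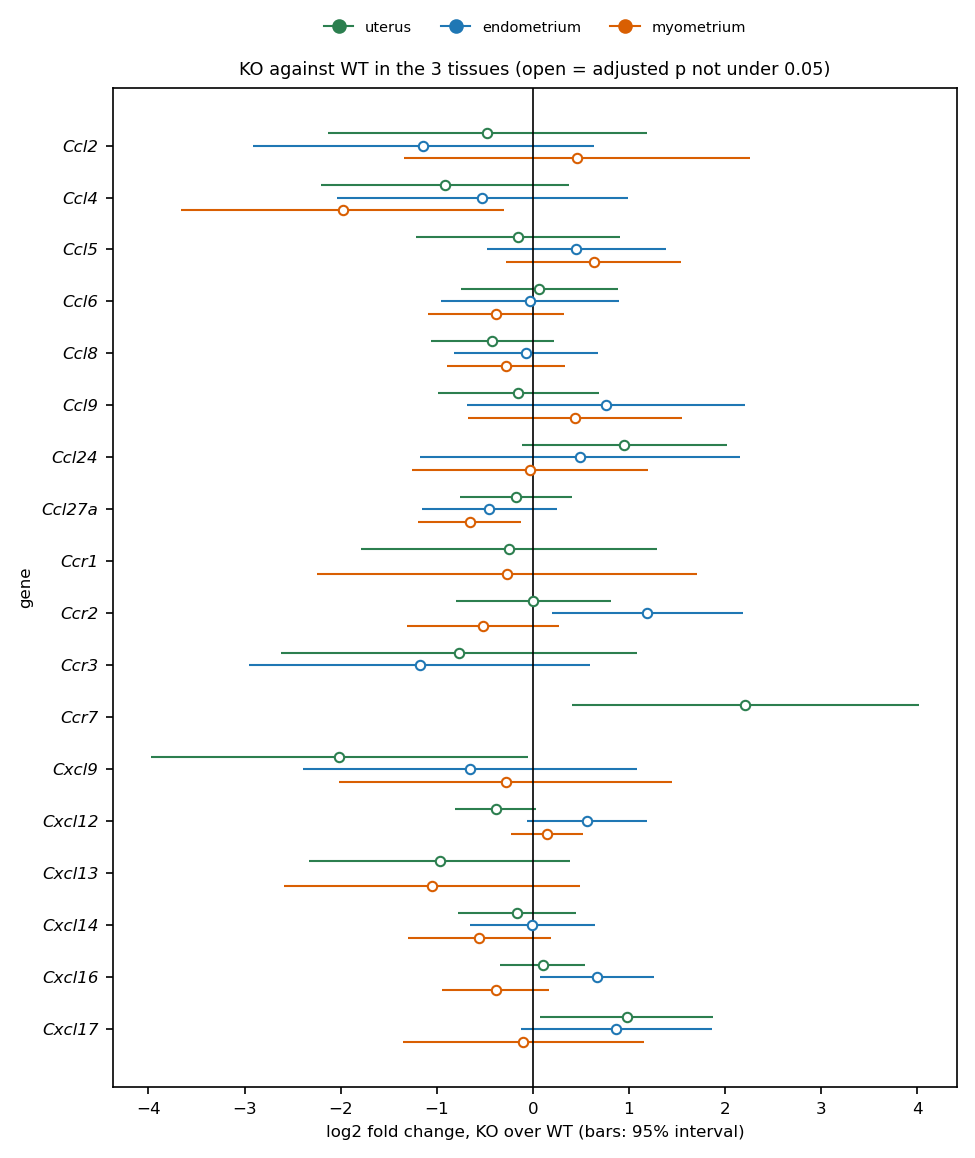
Log2 fold change of KO over WT in uterus (green), endometrium (blue) and myometrium (orange) for the 18 named members where tested, with bars at the 95% interval. All points are open because none had an adjusted p under 0.05. Intervals are narrower for Ccl8, Cxcl12, Cxcl14 and Cxcl16 than for low-count genes such as Ccr7 and Cxcl9.

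The wider pathway was described with a list of 48 genes: other chemokines and atypical receptors, inducing cytokines and transcription factors, receptor signalling, and proteins that cleave or bind chemokines. Between KO and WT, 0 of 41 to 43 tested passed in any tissue. In WT endometrium over myometrium 4 were higher and 6 lower of 42 tested, and the same numbers were found in KO. That is 23.8% of the list in each genotype, beside 13.2% of all genes in WT and 19.3% in KO. Pf4, the platelet chemokine that macrophages also make, was lower in endometrium by -1.70 ± 0.37 in WT (adjusted p = 0.00228, edgeR) and -1.57 ± 0.44 in KO (adjusted p = 0.0127). Rarres2, which encodes chemerin, was lower by -1.75 ± 0.31 (adjusted p = 0.000283) and -1.85 ± 0.24 (adjusted p = 7.95e-06). Both are ligands outside the name pattern, and both were also lower in endometrium than in the whole horn.

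Dpp4, the peptidase that trims and inactivates several chemokines including Cxcl12, was higher in endometrium by 2.72 ± 0.53 in WT (adjusted p = 0.000736, edgeR) and 2.23 ± 0.52 in KO (adjusted p = 0.00324). Nfkbia, the NF-kappa-B inhibitor, was higher by 1.26 ± 0.22 (adjusted p = 0.000259) and 1.04 ± 0.25 (adjusted p = 0.00468). In contrast Rgs1, which damps chemokine receptor signalling, was lower by -3.17 ± 0.58 (adjusted p = 0.000385) and -3.95 ± 0.48 (adjusted p = 4.55e-06). Hspg2, the matrix proteoglycan perlecan, and Mmp9, a matrix protease, were lower in both genotypes too. Of 44 list genes tested in each, 4 were higher and 1 lower in the whole horn than in endometrium, and 8 higher and 6 lower than in myometrium. These are 11.4% and 31.8% of the list, beside 8.41% and 27.8% of all genes. Xcl1, a ligand of cross-presenting dendritic cells, was among the higher ones over myometrium (adjusted p = 3.36e-05, edgeR). It had 70 counts in the uteri and 3 in the myometria, a ratio of pooled rates of 14.6 with an exact counting interval of 4.81 to 72.7.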

How the data were processed

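The authors deposited a table of raw counts per gene and spike-in RNA, made from reads with molecular identifiers and not scaled. Per the study's methods, reads were aligned to mm9 with TopHat and counted with Homer over UCSC gene models, while the submitters' processing notes name HTSeq. The treatment of reads with several positions and the use of strand are not given in the sources used here. Repeat libraries (3 of the KO mouse 13 endometrium, 2 of the WT mouse 12 myometrium) were summed, so that the mouse was the replicate. Total counts were 264095 to 1232992 per library.

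For each comparison, genes with 1 CPM in 5 samples or more entered a quasi-likelihood F test (edgeR 4.0.16, R 4.3.3, TMM factors, two-sided, no covariate), with Benjamini-Hochberg adjustment over all of them and a threshold of 0.05. The SE was the absolute log2 fold change over the square root of F, and 95% intervals were normal. Intervals of ratios resting on 1 to 3 counts were exact binomial on counts pooled over mice, so they leave out the spread between mice. The script was tested on simulated counts. The labels join the 3 tissues of a mouse, and deviations of its samples correlated at a mean of 0.066 to 0.144, against -0.024 to -0.011 between mice. The labels give a well code per library, and its letter was read as a plate row. Rows A to C and rows D to F were taken as batches, which the labels do not state. Apart from repeat libraries, rows A and D held uterus, B and E myometrium, and C and F endometrium. Tissue and single row thus cannot be told apart, and the batches do not address this.

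The members and gene lists were chosen with earlier results of these data known. Described in full were members that passed a comparison, the member of smallest p where none passed, and the 5 highest mean levels of each group. Other genes were named after their values were seen. Alternatives were DESeq2 1.42.0, other scalings, filters and thresholds, the replicate block, plate rows, repeat libraries and left-out mice. Leaving out mouse 8 between genotypes was chosen after seeing the data. Gene positions are from the GENCODE annotation of NCBIM37 (53 of 54 members matched). The results of 1 member are not reported here.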

Additional observations from a re-analysis of the deposited data

Results flagged for a closer look

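Among 82 groups of 7 mice, for the named members, 7 (8.54%) held a sample whose distance from the nearest other mouse was large for the spread of its group on the log2(CPM + 1) scale. For normally distributed values, chance gives this in about 1 in 20 groups. Some groups here hold low counts with ties at 0, and the groups share mice. That rate is thus no reference for the share found. Of these, 4 were from WT mouse 8. In its uterus Ccl2 was at 24.3 CPM (23 counts) and Ccl5 at 96.3 CPM (91 counts). In its endometrium Cxcl9 was at 23.2 CPM (15 counts) and Cxcl13 at 48.0 CPM (31 counts). The myometrium of WT mouse 5 had Cxcl17 at 229 CPM, while the other WT myometria had 3.45 to 21.0 CPM. The endometrium of the same mouse had Cxcl12 at 30.0 CPM, below the 74.1 to 146 CPM of the others. Ccl4 in KO myometrium was at 5.60 CPM in mouse 6, from 3 counts, and at 0 in the other 6 mice.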

How the results depend on the processing

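The 27 fold changes of members that passed a comparison were recomputed under the alternatives. Those in which the gene was tested and had an adjusted p gave 577 values. Of these values none changed direction, 524 stayed past the threshold and 53 did not. For 17 of the 27 fold changes all such values stayed past it. Ccr1 is among these 17, but its DESeq2 fit gave no adjusted p and is not counted. For the number of members that passed, an adjusted p under 0.1 gave 9 in place of 5 of 26 between the layers of WT mice. All genes had 2301 in place of 1746 of 13227. No gene filter gave 7 of 41 in place of 4 of 24 in KO mice, beside 2487 of 16127 genes in place of 2508 of 12969. A filter at 10 CPM left fewer members to test. It gave 5 of 13 in place of 8 of 36 for uterus against endometrium, beside 1248 of 8366 genes in place of 1194 of 14194. For uterus against myometrium it gave 6 of 12 in place of 10 of 35, beside 3434 of 8375 genes in place of 3957 of 14243. Leaving out each mouse in turn gave 4 to 6 in WT and 4 to 6 in KO, where all genes had 1158 to 1825 and 1852 to 2266. It gave 6 to 8 against endometrium and 6 to 10 against myometrium, where all genes had 891 to 1180 and 3355 to 4195. The 6 against myometrium came without mouse 8, whose omission gave 8 against endometrium. With a replicate block for mouse the numbers were 5, 5, 12 and 10, and 0 for the interaction, and the block changed no call beyond those given with the results. No paired analysis was possible for KO against WT because no mouse belongs to both genotypes. The genotype comparisons and the interaction gave 0 members under each alternative run, mouse 8 left out included. Spike-in scaling moved the median over all genes by more than 0.1 on the log2 scale in each comparison but KO against WT in myometrium, and gave 6, 5, 9 and 15 members. For the list of 48 pathway genes, the number that passed between the layers of KO mice was 10 of 42 (23.8%, beside 19.3% of all genes). It was 15 with the replicate block (35.7%, beside 21.4%) and 17 with spike-in scaling (40.5%, beside 23.5%). For uterus against endometrium it was 5 of 44 (11.4%, beside 8.41%). It was 9 there with the block (20.5%, beside 11.5%) and 4 with spike-in scaling (9.09%, beside 6.76%). Summed chemokine levels moved by less than the spread between mice with TMM-scaled CPM. Counts limit most receptors and low ligands, since 17 of the 54 members were too low to test in any comparison.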
